A study of Mus musculus with 6 samples.

Results

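The conjugation enzymes and carboxylesterases of the mouse adrenal sample were examined as a group of 37 genes out of 14727 genes tested. Members were taken by gene symbol: UDP-glycosyltransferases (UGT, symbols beginning with Ugt1, Ugt2 or Ugt3), sulfotransferases (SULT), glutathione S-transferases (GST) and carboxylesterases (CES). Of 47 such genes with a probe set of their own on the array, 37 reached a log2 of 6 on 3 or more of the 6 arrays and were compared, each by its brightest probe set: 3 UGT, 5 SULT, 18 GST and 11 CES genes. The CGP group was female C57Bl/6J offspring of dams that received the N-methyl-D-aspartate (NMDA) receptor antagonist CGP 39551 by mouth, at 5 mg/kg body weight, from pregnancy to the end of weaning. The control group was female offspring of the same strain without the drug. Both groups were kept on standard chow and killed at 21 weeks of age, and dosing had stopped at weaning. RNA of 18 mice was pooled per group and read on 3 arrays. Whether the 3 arrays carried separate pools is not stated in the labels, so the p-values reflect variation from array to array alone, and that may be technical.

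UGT, SULT and GST enzymes carry out conjugation, in which a sugar, a sulfate or glutathione is joined to a steroid, bile pigment, drug or reactive lipid so that it becomes soluble and can be exported. Carboxylesterases cut ester bonds in drugs and in stored or circulating lipids. The liver is the best known site of all 4 families, while steroid-producing glands are rich in some GSTs, and certain carboxylesterases act as lipid hydrolases in fat.

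Of the 37 genes, 11 were lower in CGP adrenals and 1 was higher at an adjusted p under 0.05 (limma), whereas 25 did not pass the test. The lower ones were all 3 UGTs, 1 of 5 SULTs, 1 of 18 GSTs and 6 of 11 carboxylesterases, and the higher one was the carboxylesterase Ces1d. Over all probe sets tested, 3.53% were called, 1.59% as lower and 1.94% as higher, against 29.7% of the members as lower and 2.70% as higher. The median log2 fold change (CGP minus control) was -0.98 for UGT, -0.29 for CES, -0.10 for GST and -0.06 for SULT genes, and -0.01 over all genes tested. Several of the lower genes were dim. Array background, set at the 75th percentile of 127 sensory receptor probe sets, was 6.42 to 6.55 on the CGP arrays and 6.49 to 6.65 on the control arrays. In 5 of the 11 lower genes all CGP arrays lay under it, so that their fold changes are bounds, and 1 of these 5, Ces2e, lay under it in both groups. Ces3b reached a log2 of 6 on the control arrays alone and therefore had to be lower to be counted.

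**Figure D1:**
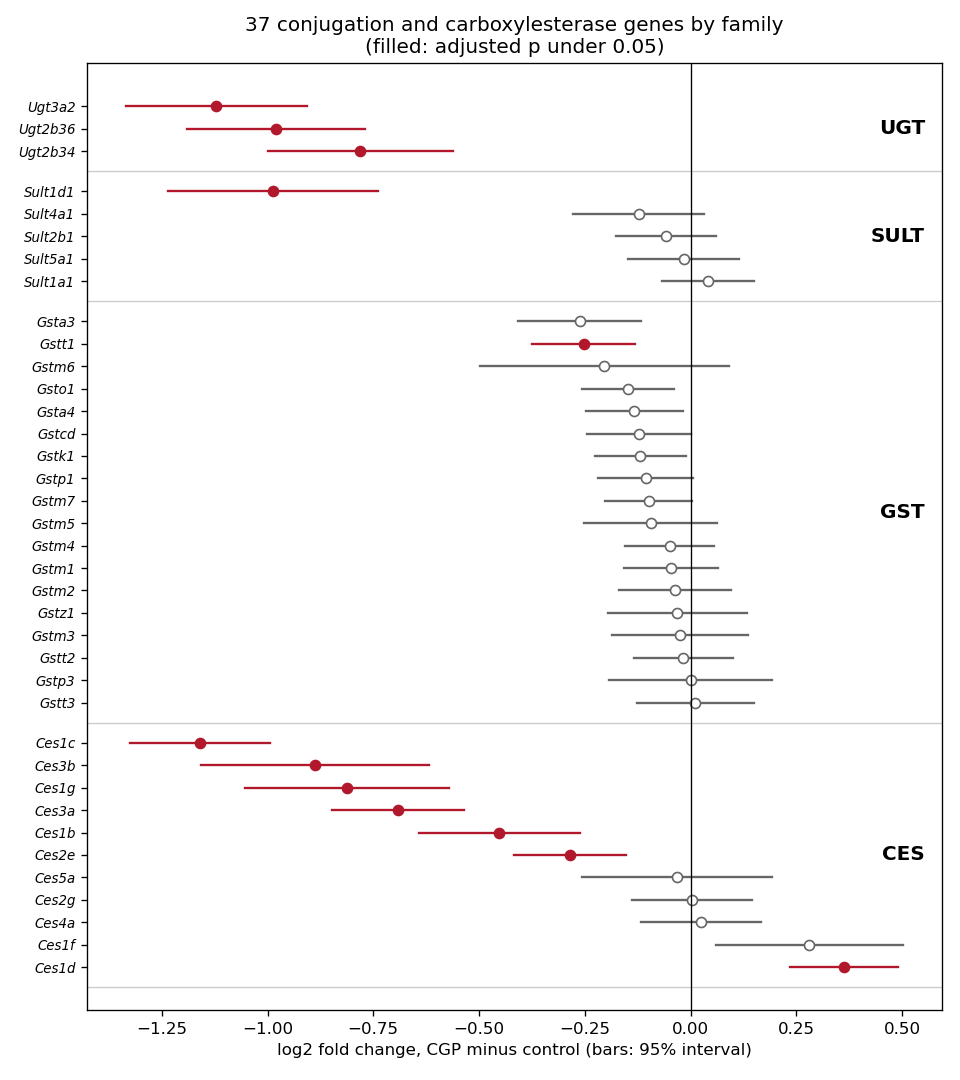
The 37 genes (vertical axis), grouped by family and ordered by value, against their log2 fold change, CGP minus control, and its 95% interval (horizontal axis). Red filled points passed an adjusted p of 0.05. All 3 UGT genes lie between -1.12 and -0.78 and the CES genes run from -1.16 to 0.36, while the GST genes stay between -0.26 and 0.01.

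The 3 glycosyltransferases were lower on every CGP array. Ugt3a2, whose human counterpart transfers glucose or xylose rather than glucuronic acid, had log2 values of 7.19, 7.22 and 7.05 on the CGP arrays, against 8.43, 8.08 and 8.31 on the control arrays. The highest CGP array lay well under the lowest control array, control 2. The difference was -1.12 (SE 0.09, 95% interval -1.33 to -0.91, adjusted p = 0.000436), or 2.17-fold lower, which ranked 17 from the lowest of 16034 probe sets. Ugt2b36 and Ugt2b34 belong to the subfamily that joins glucuronic acid to steroids and drugs. Ugt2b36 gave 6.55, 6.25 and 6.59 in CGP and 7.52, 7.39 and 7.41 in control arrays. CGP 1 and CGP 2 were under background, which makes it at least 1.89-fold lower (adjusted p = 0.000872). Ugt2b34 gave 6.30, 6.15 and 6.34 in CGP and 7.21, 6.86 and 7.07 in control arrays. None of its CGP arrays rose above background, and it was at least 1.48-fold lower (adjusted p = 0.00381). Near-identical copies exist in the Ugt2b group, and these probe sets may read more than 1 gene.

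Probe sets assigned to several UGT genes, which name no single gene and were left out of the 37, were read as well. The 2 probe sets shared by Ugt3a1 and Ugt3a2 had means of 7.01 and 6.85 in CGP arrays and 8.02 and 7.83 in control arrays. Both were lower in CGP, by 1.01 and 0.97 in log2 terms (adjusted p = 0.00133 and 0.00167 in a fit over 23496 probe sets, named or not). The probe set common to 8 Ugt1a symbols read 7.45, 7.59 and 7.45 in CGP and 7.83, 7.78 and 7.86 in control arrays. These groups did not overlap, but the difference of -0.32 (SE 0.06) missed the threshold in that fit (adjusted p = 0.0544). The Ugt1a genes share their later exons, so this probe set cannot tell the bilirubin enzyme Ugt1a1 from the others.

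Among the sulfotransferases, which transfer sulfate to phenols, catechols and steroids, 1 of 5 passed the test. Sult1d1, which in mice sulfates dopamine and other catechols, had log2 values of 6.33, 6.41 and 6.45 in CGP arrays and 7.52, 7.11 and 7.50 in control arrays. All CGP arrays lay just under background and all control arrays above it, with control 2 the lowest of the 3. Sult1d1 was at least 1.87-fold lower (adjusted p = 0.00221). The other 4 differed by less. Sult1a1, the sulfotransferase of simple phenols and the brightest of the family, read 9.13, 9.18 and 9.20 in CGP and 9.12, 9.10 and 9.18 in control arrays. Its groups overlapped, and the difference of 0.04 had a 95% interval of -0.07 to 0.15 (adjusted p = 0.666). Sult2b1, which sulfates cholesterol, differed by -0.06 (interval -0.18 to 0.06), Sult5a1 by -0.02 (interval -0.15 to 0.11) and Sult4a1, known from brain, by -0.12 (interval -0.28 to 0.03).

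**Figure D2:**
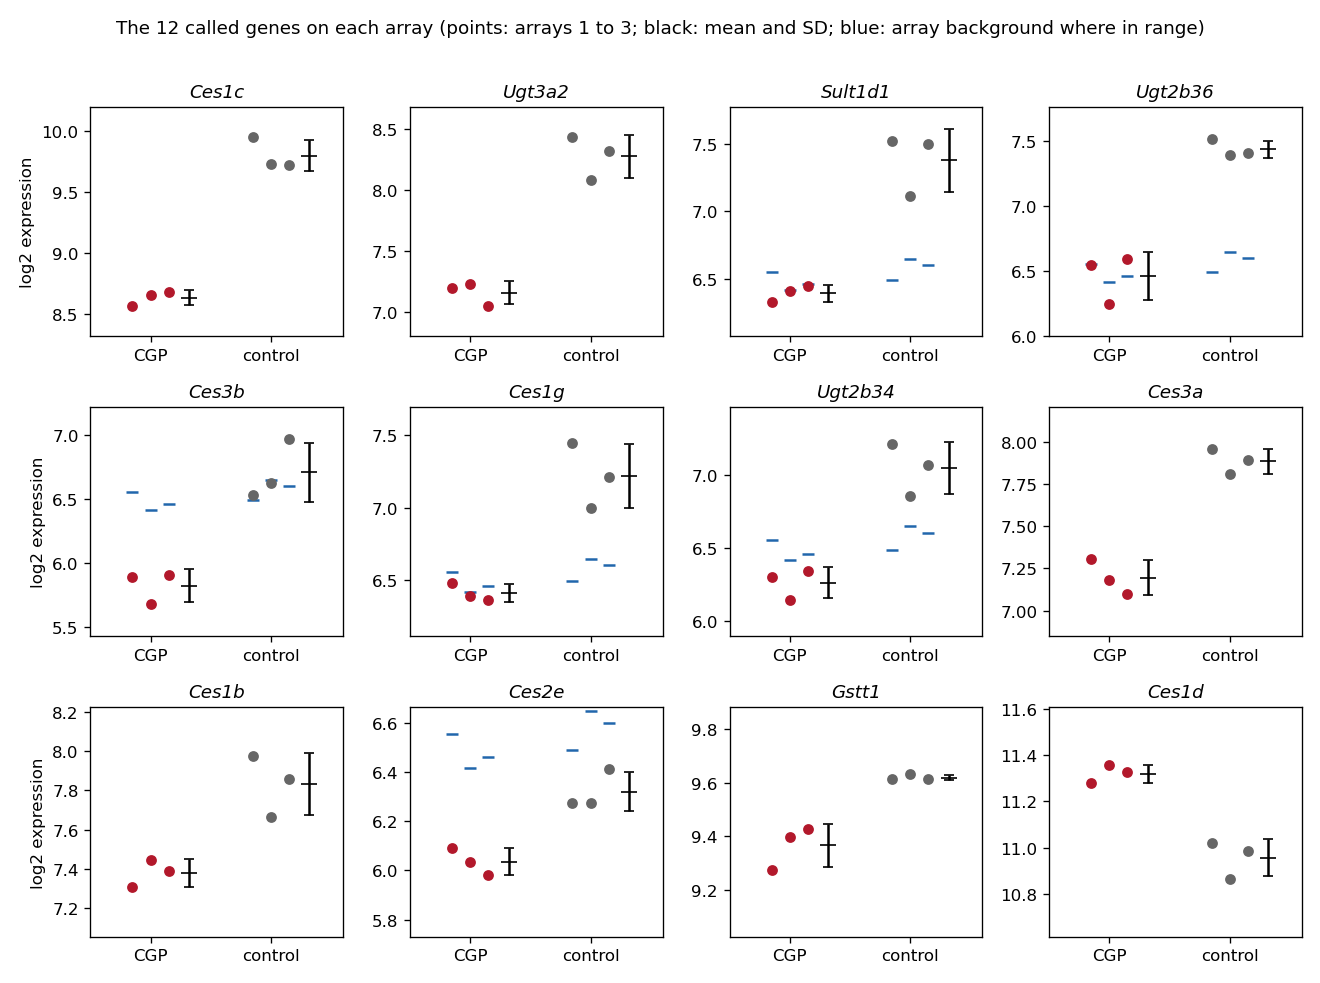
Deposited log2 expression (vertical axis, scaled to each gene) of the 12 called genes on the 3 CGP arrays (red) and the 3 control arrays (grey), with group means and SDs drawn in black and each array's background as a blue dash where it falls in range. None of the 12 shows overlap between groups, which their choice by a test on these same arrays favours. Groups also lay apart at 8 of the 25 members that did not pass and at 26.3% of all probe sets. The red points of Sult1d1, Ugt2b34, Ces1g, Ces3b and Ces2e lie under the blue dashes.

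The glutathione S-transferases, which neutralise reactive and oxidised molecules, formed the largest family and differed little. Of 18 genes 1 was lower, 0 were higher and 17 did not pass (limma, with 6 at an unadjusted p under 0.05). Gstt1, of the theta class, read 9.28, 9.40 and 9.43 in CGP and 9.61, 9.63 and 9.61 in control arrays. The control arrays were nearly equal and all lay above the CGP arrays, of which CGP 1 was the lowest. The fall was 0.25 (SE 0.05, adjusted p = 0.0456), or 1.19-fold, and the call was lost when any array was left out (adjusted p from 0.0510 to 0.143). Its neighbours Gstt2 and Gstt3 differed by -0.02 and 0.01. Neither passed the test.

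Small negative differences ran through most of the family: 16 of 18 GST genes had a log2 fold change under 0, against 54.4% of all probe sets, with 17 of 18 after quantile normalisation or median centring. Gsta3, an alpha-class enzyme, read 8.82, 8.84 and 8.93 in CGP and 9.17, 9.01 and 9.19 in control arrays. These groups did not overlap, yet the difference of -0.26 (SE 0.06) did not pass (adjusted p = 0.0692). Gsto1, of the omega class, differed by -0.15 (adjusted p = 0.142), and Gsta4, which removes the lipid peroxidation product hydroxynonenal, by -0.13 (adjusted p = 0.196). The groups did not overlap at 8 of the 18 genes, against 26.3% of all probe sets. The 3 brightest members were Gstp1 of the pi class, Gstm1 of the mu class and Gstk1 of mitochondria and peroxisomes. Gstp1 averaged 12.69 ± 0.02 in CGP and 12.79 ± 0.06 in control arrays (SD, n = 3 each), a difference of -0.11 (interval -0.22 to 0.005, adjusted p = 0.273). Gstm1 averaged 12.34 ± 0.06 in CGP and 12.39 ± 0.01 in control arrays and differed by -0.05 (interval -0.16 to 0.06, adjusted p = 0.630). Gstk1 averaged 12.04 ± 0.05 in CGP and 12.15 ± 0.02 in control arrays and differed by -0.12 (interval -0.23 to -0.01, adjusted p = 0.214). None of these 3 intervals reached below -0.23 or above 0.06.

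The 7 mu-class genes lay between -0.20 for Gstm6 and -0.03 for Gstm3, and none passed the test, nor did any reach an unadjusted p under 0.05. Gstm6 had the widest interval of the family (-0.50 to 0.09), since CGP 1 read 6.35 while CGP 2 and 3 read 6.76 and 6.85. A second, dimmer Gstm3 probe set differed by -0.30 and did not pass either (adjusted p = 0.290 in the fit over 23496 probe sets). There too CGP 1, at 7.10, was lower than CGP 2 and 3 at 7.49 and 7.48. Gstz1, an isomerase of tyrosine breakdown, differed by -0.03, Gstcd, which shares only a domain with the transferases, by -0.12, and Gstp3, with both group means under background, by 0.00. Genes of this family, the mu class above all, are close in sequence, and their probe sets may read several at a time. Probe sets shared by Gstp1 and Gstp2 differed by -0.14 and -0.13 and those shared by Gsta1, Gsta2 and a pair of predicted genes by -0.15 and -0.22, none of which passed (adjusted p from 0.251 to 0.293).

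Carboxylesterases showed the widest range, with calls in both directions. Ces1c, an esterase that mouse liver secretes into plasma, read 8.57, 8.65 and 8.68 in CGP arrays and 9.94, 9.73 and 9.72 in control arrays. No value came near the other group, and control 1 was the highest. The difference of -1.16 (SE 0.07, interval -1.33 to -0.995, adjusted p = 0.000113), or 2.24-fold lower, was the lowest of the 37 and ranked 11 from the lowest of 16034 probe sets. Ces1g, an esterase of liver lipid metabolism, read 6.47, 6.39 and 6.36 in CGP and 7.45, 7.001 and 7.21 in control arrays. Its CGP arrays were all slightly under background, so that it was at least 1.67-fold lower (adjusted p = 0.00518). Ces1b read 7.31, 7.45 and 7.39 in CGP and 7.97, 7.66 and 7.86 in control arrays. Its groups lay apart, by less than those of Ces1c. Ces1b fell by 0.45 (SE 0.08, adjusted p = 0.0269), and leaving out control 3, CGP 1, CGP 2 or CGP 3 ended its call (adjusted p from 0.0809 to 0.114).

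The related Ces1d and Ces1f, triacylglycerol hydrolases known from both liver and fat, were higher by value. Ces1d read 11.28, 11.36 and 11.33 in CGP arrays and 11.02, 10.87 and 10.98 in control arrays. Every CGP array lay above every control array. Ces1d rose by 0.36 (SE 0.05, interval 0.24 to 0.49, adjusted p = 0.0119), or 1.29-fold, and lost its call without CGP 2 (adjusted p = 0.0747) or CGP 3 (adjusted p = 0.0680). Ces1f read 7.69, 7.82 and 7.70 in CGP and 7.67, 7.29 and 7.40 in control arrays. Here CGP 1 and control 1 were almost level. The difference of 0.28 (interval 0.06 to 0.50) did not pass (adjusted p = 0.165).

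Outside the Ces1 group, Ces3a, a lipid hydrolase of mouse liver, read 7.31, 7.18 and 7.10 in CGP and 7.96, 7.81 and 7.89 in control arrays. The groups lay apart and above background. Ces3a fell by 0.69 (SE 0.07, adjusted p = 0.00114), or 1.61-fold. Its neighbour Ces3b read 5.89, 5.67 and 5.91 in CGP and 6.53, 6.63 and 6.97 in control arrays, with control 2 also just under background. It was at least 1.17-fold lower (adjusted p = 0.00586). Ces2e read 6.09, 6.03 and 5.98 in CGP and 6.27, 6.27 and 6.41 in control arrays. All 6 values were under background, so no fold is given and its test (adjusted p = 0.0403) cannot show a change of the transcript. Ces2g, Ces4a and Ces5a, with differences of 0.00, 0.02 and -0.03, were close to or under background and did not pass.

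The 10 genes under the filter were Ces1a, Ces1e, Ces2a, Sult2a8, Ugt2a3, Ugt2b1, Ugt2b5, Ugt2b35, Ugt2b37 and Ugt3a1. Their group means ran from 4.57 to 6.10, all under background. Of the 10, 9 were lower in CGP by value. Ugt3a1 came closest to the filter (5.53, 5.21 and 5.39 in CGP and 6.14, 5.86 and 6.29 in control arrays), while Ces4a, just inside it, averaged 6.16 in CGP and 6.14 in control arrays.

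Many members neighbour each other in the genome, whether called or not: 26 of all 37 did so, 10 of the 11 lower ones and 15 of the 25 that did not pass (protein-coding gene order of assembly GRCm38.p6, with at most 15 genes between neighbours). On chromosome 5, Ugt2b34, Ugt2b36 and Sult1d1 lay in a row, with 2 and 7 other genes between them. All 3 were lower although they belong to 2 enzyme families. On chromosome 8, Ces1b, Ces1c, Ces1d, Ces1f and Ces1g followed each other with no gene between them but 1, and the directions alternated: Ces1b and Ces1c were lower, Ces1d was higher and Ces1g was lower. The 95% intervals of Ces1c (-1.33 to -0.995) and its immediate neighbour Ces1d (0.24 to 0.49) lay on opposite sides of 0. In a second row on chromosome 8, Ces2e, Ces3a and Ces3b were called and Ces2g and Ces4a were not. The 7 mu-class genes, side by side on chromosome 3, held no call.

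**Figure D3:**
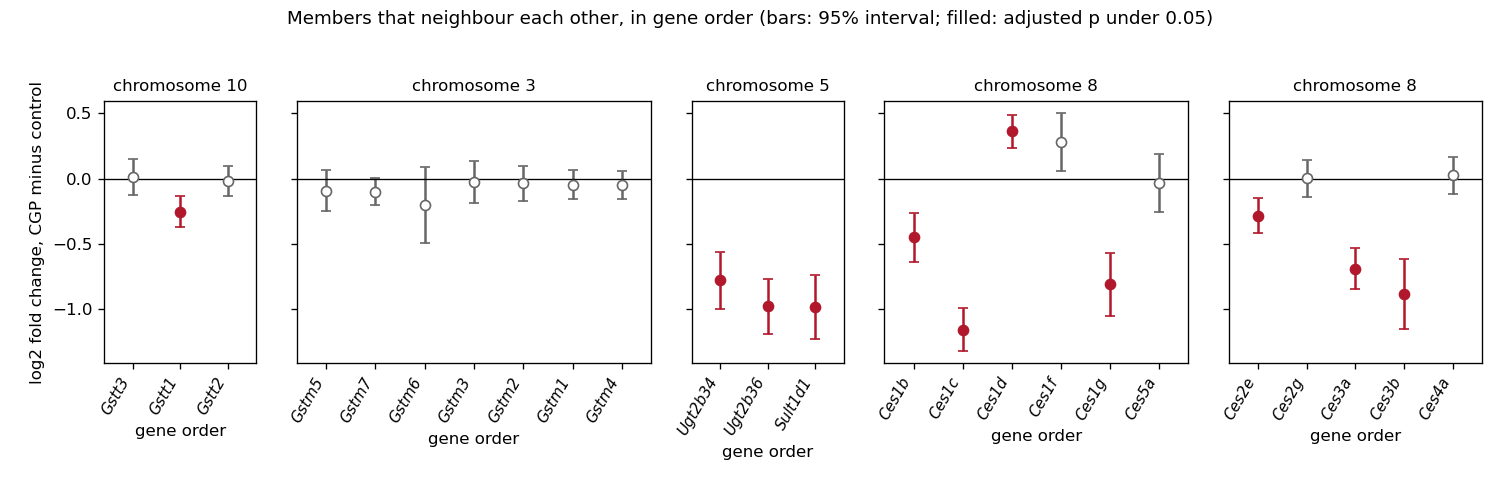
Log2 fold change (vertical axis, CGP minus control, with 95% intervals) of members that neighbour each other, in gene order along 4 chromosomes (horizontal axis). Red filled points passed an adjusted p of 0.05. In the Ces1 row Ces1d sits at 0.36 between Ces1c at -1.16 and Ces1g at -0.81, and the row on chromosome 5 lies between -0.99 and -0.78.

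Promoter sequences are shown for 5 of the lower genes from 3 rows of neighbours, a choice made after values were seen. Windows of Ces1b, Ces2e and Ugt2b34, called lower and in the same rows, are not shown. RefSeq windows (GRCm38.p6) from 250 bases before to 50 bases after the start site were found for 30 of the 37 members. No window was found for Ces1d, Ces1f, Ces3a, Gsta4, Gstt2, Sult4a1 and Ugt3a2. A set of 4 short motifs was searched on both strands: GTTAAT, the half-site of hepatocyte nuclear factor 1 (HNF1), AGGTCA, the half-site of nuclear receptors, TTGCNNAA, a form of the CCAAT/enhancer binding protein (C/EBP) motif, and TATAAA, the TATA box. Capitals mark the matches, none of which overlap in the windows shown, and each sequence runs 5′ to 3′ on the gene's strand. The windows are chr8:93131234-93131533 (minus strand) for Ces1c, chr8:93337160-93337459 (minus strand) for Ces1g, chr8:105083505-105083804 (plus strand) for Ces3b, chr5:87092506-87092805 (minus strand) for Ugt2b36 and chr5:87568957-87569256 (minus strand) for Sult1d1.
Ces1c: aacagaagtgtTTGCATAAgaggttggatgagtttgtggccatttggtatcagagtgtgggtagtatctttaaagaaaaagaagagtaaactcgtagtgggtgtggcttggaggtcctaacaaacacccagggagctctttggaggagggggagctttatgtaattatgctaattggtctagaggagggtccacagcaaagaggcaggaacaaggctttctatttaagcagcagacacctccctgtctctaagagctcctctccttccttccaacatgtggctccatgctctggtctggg
Ces1g: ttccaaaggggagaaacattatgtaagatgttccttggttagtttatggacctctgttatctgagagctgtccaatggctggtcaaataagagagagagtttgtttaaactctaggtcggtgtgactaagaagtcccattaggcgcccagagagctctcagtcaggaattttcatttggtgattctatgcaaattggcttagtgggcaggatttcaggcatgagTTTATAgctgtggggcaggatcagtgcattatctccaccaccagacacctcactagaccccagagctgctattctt
Ces3b: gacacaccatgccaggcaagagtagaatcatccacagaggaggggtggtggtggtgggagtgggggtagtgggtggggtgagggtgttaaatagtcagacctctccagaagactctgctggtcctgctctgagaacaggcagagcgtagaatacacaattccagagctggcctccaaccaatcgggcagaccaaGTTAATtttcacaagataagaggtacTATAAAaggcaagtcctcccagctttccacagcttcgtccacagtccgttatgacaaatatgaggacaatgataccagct
Ugt2b36: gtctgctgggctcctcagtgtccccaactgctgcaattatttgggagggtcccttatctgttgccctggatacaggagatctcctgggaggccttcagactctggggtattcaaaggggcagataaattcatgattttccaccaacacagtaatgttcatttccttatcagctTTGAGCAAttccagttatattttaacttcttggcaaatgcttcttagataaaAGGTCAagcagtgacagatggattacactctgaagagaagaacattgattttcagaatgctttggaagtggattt
Sult1d1: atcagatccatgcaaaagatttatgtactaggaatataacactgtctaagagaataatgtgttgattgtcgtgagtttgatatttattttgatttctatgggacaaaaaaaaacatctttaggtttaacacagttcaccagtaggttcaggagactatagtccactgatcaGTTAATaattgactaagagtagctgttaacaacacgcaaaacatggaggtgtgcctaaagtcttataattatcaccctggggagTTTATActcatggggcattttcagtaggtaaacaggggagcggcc

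In these windows, Ces3b had the HNF1 half-site 56 bases and a TATA box 30 bases before the start site, and Sult1d1 had the HNF1 half-site 79 bases before it. The match of Sult1d1 to the TATA box letters lay on the opposite strand and began after the start site, at base 6. Ces1g had a TATA box, on the opposite strand, 26 bases before the start. Ugt2b36 held the nuclear receptor half-site at 25 bases and the C/EBP motif at 77 bases before the start, and Ces1c the C/EBP motif at 239 bases. All 5 windows shown thus held a match, while that of Ugt2b34, not shown, held 0 matches to the motifs searched. Of the 9 lower genes with a window, 5 held the C/EBP motif (Ces1b, Ces1c, Ces2e, Gstt1 and Ugt2b36), against 4 of 21 members that did not pass the test and 12.2% of all 27025 genes with a window. Of these 5, Ces2e lay under background on every array. In Ces1b and Ces1c the motif lies in the same stretch of letters, so their matches are not independent. Of the 6 with a window whose call held under each alternative that tested them, 2 held the C/EBP motif (Ces1c and Ugt2b36). Ces3b, among the 9 and among these 6, had to be lower to be tested. The HNF1 half-site was in 2 of the 9, 3 of the 21 and 8.24% of all genes, the nuclear receptor half-site in 1, 3 and 18.1%, and the TATA box in 3, 3 and 15.7%. The TATA box counts include matches after the start site, as in Sult1d1 and, among members that did not pass, Gstm5. Counted over all windows of this length, the shares were 10.8% for the C/EBP motif, 7.10% for the HNF1 half-site, 16.3% for the nuclear receptor half-site and 13.6% for the TATA box. These matches describe the letters in the windows and are not sites shown to be bound.

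The enzymes and transporters that work with these families were then compared. The share of genes that passed the test differed from list to list, and over all probe sets tested it was 3.53%. Of 5 genes of glucuronidation, which make or carry UDP-sugars or, as Gusb does, remove glucuronic acid again, 0 were called (limma, 0 at an unadjusted p under 0.05), and of 19 genes of glutathione synthesis and use 0 were called (4 at an unadjusted p under 0.05), with medians of -0.02 and -0.05. Of 8 genes of sulfate supply, sulfate activation and removal of the spent donor, 4 had an unadjusted p under 0.05 and 1 was called, the sulfate transporter Slc26a1, which averaged 6.50 ± 0.07 in CGP and 6.81 ± 0.03 in control arrays and was at least 1.204-fold lower (adjusted p = 0.0182). The other 3 differed in both directions, Papss2, which makes the sulfate donor, by 0.18, the sulfate transporter Slc26a2 by 0.24 and the donor transporter Slc35b2 by -0.18, and did not pass (adjusted p = 0.108, 0.149 and 0.176). Among 15 other ester and epoxide hydrolases, 2 were lower and 3 higher. Pon1, the paraoxonase that liver secretes onto lipoproteins, averaged 8.29 ± 0.06 in CGP and 8.95 ± 0.06 in control arrays (log2 fold change -0.66, adjusted p = 0.000436), and Aadac, an esterase of liver microsomes, was at least 1.28-fold lower. The adipose triglyceride lipase Pnpla2 averaged 12.11 ± 0.02 in CGP and 11.77 ± 0.02 in control arrays (0.35, adjusted p = 0.00407) and Pon3 rose by 0.29. The epoxide hydrolase Ephx2 rose by 0.28. The hormone-sensitive lipase Lipe, which is on the adipocyte marker list as well, differed by 0.24 (adjusted p = 0.0635).

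Other conjugation enzymes gave 2 lower and 1 higher of 10. Gnmt, the glycine methyltransferase of liver, averaged 8.41 ± 0.17 in CGP and 9.47 ± 0.07 in control arrays (-1.06, adjusted p = 0.000436), Baat, which joins amino acids to bile acids, was at least 1.30-fold lower, and Acsm3, an acyl-CoA synthetase, rose by 0.46. Of 11 transporters of conjugates and bile acids 4 were lower and 0 higher, with a median of -0.22. Slc10a1, the bile acid importer of hepatocytes, averaged 9.68 ± 0.06 in CGP and 10.62 ± 0.02 in control arrays (-0.94, adjusted p = 6.90e-05). Abcc2, the export pump for glucuronides and glutathione conjugates, averaged 6.97 ± 0.15 in CGP and 7.65 ± 0.09 in control arrays (-0.68, adjusted p = 0.00405). Slco1a4 and Slco1b2, importers of organic anions, were called but lay under background in both groups. Of 11 regulators of conjugation genes 2 were lower, the liver factor Hnf4a (7.99 ± 0.04 in CGP and 8.50 ± 0.02 in control arrays, adjusted p = 0.000709) and the xenobiotic receptor Nr1i3 (7.01 ± 0.13 in CGP and 7.45 ± 0.12 in control arrays, adjusted p = 0.0364). In all, 7 of the 11 had an unadjusted p under 0.05. The others of these differed in both directions and did not pass (adjusted p from 0.0695 to 0.230). Cebpa, a C/EBP factor, differed by 0.26 and Ppara by 0.13. Nr1h4 differed by -0.23, Nfe2l2 by -0.16 and Nr1i2, under background in both groups, by -0.23.

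Markers of other cell types moved between the same arrays. Of 36 hepatocyte markers tested, none of them a member, 33 were lower and 0 higher in CGP, with a median of -0.79, and none had both group means under background. Their summed signal (log2 values returned to the linear scale) was 39768 to 40276 on the CGP arrays and 59491 to 60519 on the control arrays. Of 20 adipocyte markers 18 were higher and 0 lower, with a median of 0.55 and a summed signal of 57394 to 57959 on the CGP arrays and 40947 to 41896 on the control arrays. The summed signal of the 11 lower members was 1931 to 2006 on the CGP arrays and 3065 to 3473 on the control arrays, a sum over genes picked for being lower. Over whole families, the CES sums overlapped (3875 to 4030 in CGP and 3881 to 4358 in control arrays), and the GST sums were 27739 to 28010 in CGP and 29071 to 30404 in control arrays. Control 2 was the lowest control array at 8 of the 11 lower members and at 18 of the 33 lower hepatocyte markers. Its median over all probe sets was also the lowest of the control arrays (7.91, against 7.95 for control 1 and 7.96 for control 3). On the CGP side the lists differed. CGP 1, 2 and 3 were lowest at 4, 3 and 4 of these members and at 15, 4 and 14 of these markers. Such counts were not made over all probe sets. The part of these cell types in the differences of the members was not tested. In bulk tissue the number of cells of a type and the RNA per cell cannot be told apart. Whether such cells belong to the gland or to other tissue in the sample cannot be told either. Of 11 adrenal cortex markers 1, the aldosterone synthase Cyp11b2, was higher and 0 were lower (2 at an unadjusted p under 0.05). By value 10 of the 11 were higher, with per-array medians of 12.84 to 12.95 in CGP and 12.68 to 12.83 in control arrays. Of 13 chromaffin markers 0 were called (1 at an unadjusted p under 0.05), and of 6 kidney tubule markers 0 were called (0 at an unadjusted p under 0.05). Only these 6 of 12 listed kidney tubule markers were tested, and 3 of them had both group means under background. Of the remaining lists, fibroblast markers gave 2 higher of 10 (5 at an unadjusted p under 0.05). All 10 were higher by value, with per-array medians of 8.46 to 8.49 in CGP and 8.22 to 8.26 in control arrays. Schwann and sustentacular markers gave 1 lower and 1 higher of 4. No endothelial, macrophage or lymphocyte marker of 10, 10 and 5 was called (1, 2 and 0 at an unadjusted p under 0.05).

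**Figure D4:**
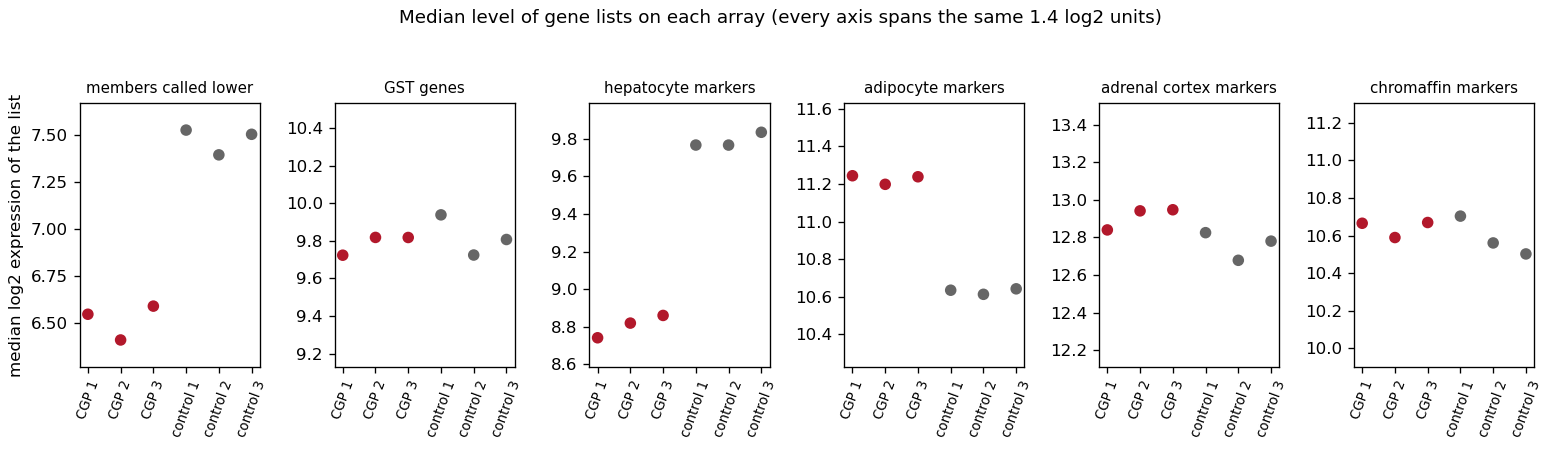
Median log2 expression (vertical axis, the same span of log2 units in each panel) of 6 gene lists on each array (horizontal axis, CGP in red, control in grey). The members called lower were picked from these same arrays, so their panel is lower in CGP by that choice. The hepatocyte markers (8.74 to 8.86 in CGP and 9.77 to 9.83 in control arrays) are lower on the CGP arrays. The adipocyte markers (11.20 to 11.24 in CGP and 10.61 to 10.64 in control arrays) are higher, as are the adrenal cortex markers by less (12.84 to 12.95 in CGP and 12.68 to 12.83 in control arrays). The group medians overlap for GST genes, whose summed signals do not, and for chromaffin markers.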

How the data were processed

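Adrenal RNA of 6 samples, 3 CGP and 3 control, was measured on Affymetrix whole-transcript arrays, with group and number read from each sample's title. A deposited table, made by the authors, holds log2 values of 25150 probe sets. The submitters' processing notes name RMA (background correction, quantile normalisation and summarisation of probes) and Partek, without versions, while build and annotation were not given in the sources used here. Arrays carry no read depth. Precision is limited by their number.

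Probe sets with 1 gene symbol in the platform annotation (16769, with 1031 having several and 7350 none) that reached a log2 of 6 on 3 or more arrays were tested (16034, of 14727 genes). All 37 members matched the RefSeq gene table by Entrez number. CGP was compared with control with lmFit and eBayes of limma 3.58.1 under R 4.3.3 (two-sided, no covariates), with Benjamini-Hochberg adjustment over all 16034. The brightest probe set on average stood for each gene. SE is the moderated standard error, and SD is over 3 arrays. Where a dimmer group lay under array background, those arrays were set to background and the fold is a bound. The fit was tested on simulated data.

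The members, the partner and marker lists and the motifs were chosen with earlier results of these data known, and no set test was made. All members are accounted for. Those with an adjusted p under 0.05 and the 3 brightest of each family were named by rule, and others were named after their values were seen, as were the chosen promoters. Of each partner list, up to 4 called genes were named by rule. As alternatives, other settings were used for the filter, the range of probe sets, the normalisation, the variance model, array weights, the array number as a block, the choice of probe set and leaving out each array. Plots were drawn with matplotlib 3.10.9.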

Additional observations from a re-analysis of the deposited data

How the results depend on the processing

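Of the 12 calls, 8 (Ugt2b34, Ugt2b36, Ugt3a2, Sult1d1, Ces1c, Ces1g, Ces3a and Ces3b) held under each of the 15 alternatives that tested the gene, and no called difference changed sign. The stricter filter (a log2 of at least 7) did not test Ugt2b34, Ces2e and Ces3b. Ugt2b36, Sult1d1 and Ces1g passed it, and Ces3b the filter at 6, through control arrays alone, so these had to be lower to be tested and those filters say nothing about their stability. Leaving out 1 array gave 8 to 10 lower and 0 to 2 higher members, with 3 UGT, 1 SULT, 0 to 1 GST and 4 to 6 CES genes lower and 0 to 2 CES genes higher, against 236 to 1099 calls over all probe sets. That total was 1099 without control 1, 364 without control 2, 269 without control 3, 320 without CGP 1, 236 without CGP 2 and 237 without CGP 3. No UGT, SULT or GST gene was called higher under any alternative.

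Without a filter 6 UGT genes were lower (Ugt2a3, Ugt2b1 and Ugt3a1 in addition, all under background) and 0 GST genes. The count of lower GST genes was 2 with the stricter filter, quantile normalisation, median centring or array weights (Gsta3 in addition), 5 with a variance trend and robust prior (Gsta3, Gstk1, Gsto1 and Gstp1 in addition), and 0 with all 23496 probe sets above the filter tested or with the replicate block. Array weights called 2 members higher (Ces1f in addition), both carboxylesterases, and so did leaving out control 1. Calls over all probe sets were 1261 with a variance trend and robust prior, 1665 with array weights and 224 with the replicate block. The labels give no pairing by array number. Deviations of same-numbered arrays from their group means correlated at -0.36, -0.17 and -0.12, and those of other pairs at -0.16 to 0.28. Deviations from a mean of 3 arrays sum to 0, so these values cannot decide whether arrays were paired. With the replicate block, 8 members were lower and 0 higher, the calls of Gstt1, Ces1b, Ces2e and Ces1d (adjusted p = 0.0811) being lost. Ces2e also lost its call with the variance trend (adjusted p = 0.0600) and without control 2, control 3 or any 1 CGP array (0.0645 to 0.163), and Gstt1 without a filter (0.0507). With all probe sets tested, Gstt1, Ces1b and Ces2e were lost (0.0979, 0.0782 and 0.0937). Apart from the alternatives' own construction (fewer arrays, more probe sets), the cause was not tested. Signals near background limit the results of Ugt2b34, Ugt2b36, Sult1d1, Ces1g, Ces2e and Ces3b, but not of Ugt3a2.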
